A study of Mus musculus with 6 samples.

Results

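The retinoic acid pathway genes described here are 9 of the 21639 gene entries in an RNA-Seq expression table of mouse embryonic stem cells (ESCs). They were chosen by symbol, for their known roles, as *Cyp26a1*, *Aldh1a2*, *Dhrs3*, *Stra6*, *Crabp1*, *Crabp2*, *Rara*, *Rarb* and *Stra8*. Each symbol has a single row in the table. Gene expression was measured in 6 libraries, with 1 library for each of 3 ESC lines as ESCs at Day 0 (D0) and as embryoid bodies (EBs) at Day 3 (D3).

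The labels give V6.5 (129SvJaexC57BL/6) as the strain of every sample and H2AZ WT, H2AZ KD and H2AZ-AP3 variant as the genotypes, called H2A.ZWT, H2A.ZKD and H2A.ZAP3 here. H2A.Z is a histone variant that replaces H2A at many promoters. According to the protocols, H2A.ZWT and H2A.ZAP3 cells are KH2 ESCs that carry a doxycycline-inducible, YFP-tagged H2A.Z transgene under a CMV promoter, sorted for YFP. In H2A.ZAP3, 3 residues of the acidic patch are replaced with those of H2A. Both transgenic lines then received short hairpins that target the endogenous H2A.Z transcript in its 3′ UTR, so H2A.ZWT is a rescued line and not an unmodified ESC. H2A.ZKD is the name the study gives to depletion by these hairpins in the inducible lines. Which of the hairpins each library carries, and whether a transgene was expressed in the H2A.ZKD libraries, is not given in the sources used here. ESCs were grown with serum and LIF, without feeder cells for the final passage, and EBs were formed in the same medium without LIF. Retinoic acid is not named in the EB protocol.

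Retinoic acid is made in cells from vitamin A (retinol). Retinol enters through the receptor STRA6, is oxidised to retinal and then, by enzymes such as ALDH1A2, to retinoic acid. DHRS3 reduces retinal back to retinol, and CYP26A1 degrades retinoic acid. CRABP1 and CRABP2 carry retinoic acid inside the cell, and CRABP2 can deliver it to the retinoic acid receptors RARA, RARB and RARG. These receptors bind DNA as dimers with RXR proteins. *Cyp26a1*, *Rarb*, *Dhrs3*, *Crabp2*, *Stra6* and *Stra8* are themselves known to be induced by retinoic acid in several cell types, and *Stra8* is best known as a gene of germ cells entering meiosis. In the early embryo, retinoic acid patterns the body axis, and *Cyp26a1* protects tissues from it.

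The classical binding element of these receptors is a direct repeat of a hexamer, here AGGTCA, or the hexamer AGTTCA, or the hexamer GGGTCA, or the hexamer GGTTCA, with a spacer of 5 (DR5), 2 (DR2) or 1 (DR1) bases. Both strands were searched around annotated protein-coding start sites in NCBIM37 (mm9), the build of the expression table, and the 3 spacings were counted apart. The matches at the pathway genes are shown because they separate genes with a repeat next to the start site from those without a match in the window. The letters in capitals are the whole repeat with its spacer, and each sequence reads 5′ to 3′ on the strand of the gene.

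*Cyp26a1*, DR5, chr19:37772260-37772288: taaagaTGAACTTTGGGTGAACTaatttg

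*Cyp26a1*, DR5, chr19:37770393-37770421: ctgcagGGGTCACAGGCGGGTCAggctaa

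*Rarb*, DR5, chr14:17408021-17408049: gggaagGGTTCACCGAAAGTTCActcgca

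*Rara*, DR5, chr11:98821316-98821344: caggcgAGTTCAGCAAGAGTTCAgccgaa

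*Crabp2*, DR2, chr3:87751439-87751468: aagtccccAGTTCACCAGGTCAgggctgcc

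The first *Cyp26a1* match starts 32 bases before the start site and has its hexamers on the opposite strand, and the *Rarb* match starts 57 bases before the start site at 17407986. In windows from 250 bases before to 50 bases after the start, these were the only members with a DR5 match, while 24 of 22225 genes (0.108%) held it. With windows from 2000 bases before to 500 bases after, 250 genes (1.12%) held a DR5 match. These included the second *Cyp26a1* match, 1899 bases before the start, and the *Rara* match, 404 bases before a start site at 98821726 that lies inside the gene. The *Crabp2* DR2 match lies 1141 bases before a start site at 87752588, and 673 genes (3.03%) held a DR2 match in windows of this length. DR1 was not matched at a member in either window, against 2.41% of genes in the longer window. A match describes the letters of the sequence and does not show binding.

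Before the comparisons, the libraries were checked against their labels. *H2afz*, the gene the hairpins target, was at 279 RPKM (reads mapped, scaled to transcript length and to the depth of the library) in H2A.ZWT, 343 in the library labelled H2A.ZKD and 304 in H2A.ZAP3 ESCs, and at 258, 236.5 and 394 RPKM in the EBs. It was thus not lower under the H2A.ZKD label at D0, and the table does not separate transgene from endogenous reads, so this line is called the library labelled H2A.ZKD throughout. The ESC marker *Pou5f1* was at 358 to 541 RPKM in all 6 libraries, and 7 of the 8 ESC markers were found in the table, of which 3 were lower in H2A.ZAP3 than in H2A.ZWT at D0 by the fold defined here (all entries, 13.9%), and 0 in the library labelled H2A.ZKD (10.7%). The 3 were *Dppa3*, at 16.6 against 37.9 RPKM, *Klf4*, at 65.9 against 121 RPKM, and *Sox2*, at 109.7 against 191 RPKM. Depth, estimated from the value of 1 read, was 16.4 M reads for H2A.ZWT, 18.5 M for the library labelled H2A.ZKD and 30.7 M for H2A.ZAP3 at D0, and 20.8, 25.6 and 20.5 M at D3. Each condition has 1 library, so the differences below could not be checked in replicates and carry no p-value. A gene is said to be higher or lower, to rise or to fall when the ratio of (RPKM + 0.001) passed 1.5-fold (0.58 on the log2 scale), the fold the study used. Intervals on a log2 change are 95% counting intervals (exact Clopper-Pearson) from the reads estimated for the 2 libraries. They hold counting error only. Reads were not tagged by molecule, so PCR copies count as separate reads, and the spread between cultures is not included. In RNA from whole cultures, fewer cells of a type and less RNA per cell cannot be told apart.

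All 9 genes were above 0 in all 6 libraries. The plot of RPKM by library shows how their levels differed. *Rara*, *Crabp1* and *Crabp2* stood between 5.93 and 17.6 RPKM, *Stra8* between 1.70 and 11.2 RPKM and *Dhrs3* between 0.880 and 2.76 RPKM. *Cyp26a1* and *Stra6* were under 1 RPKM in every ESC library and over 1 RPKM in every EB library, and *Aldh1a2* and *Rarb* stayed under 1 RPKM in all 6 libraries. From the lowest to the highest library the level spanned 53.8-fold for *Cyp26a1*, 6.57-fold for *Stra8* and 4.69-fold for *Stra6*, and 1.58-fold for *Rara*.

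**Figure D1:**
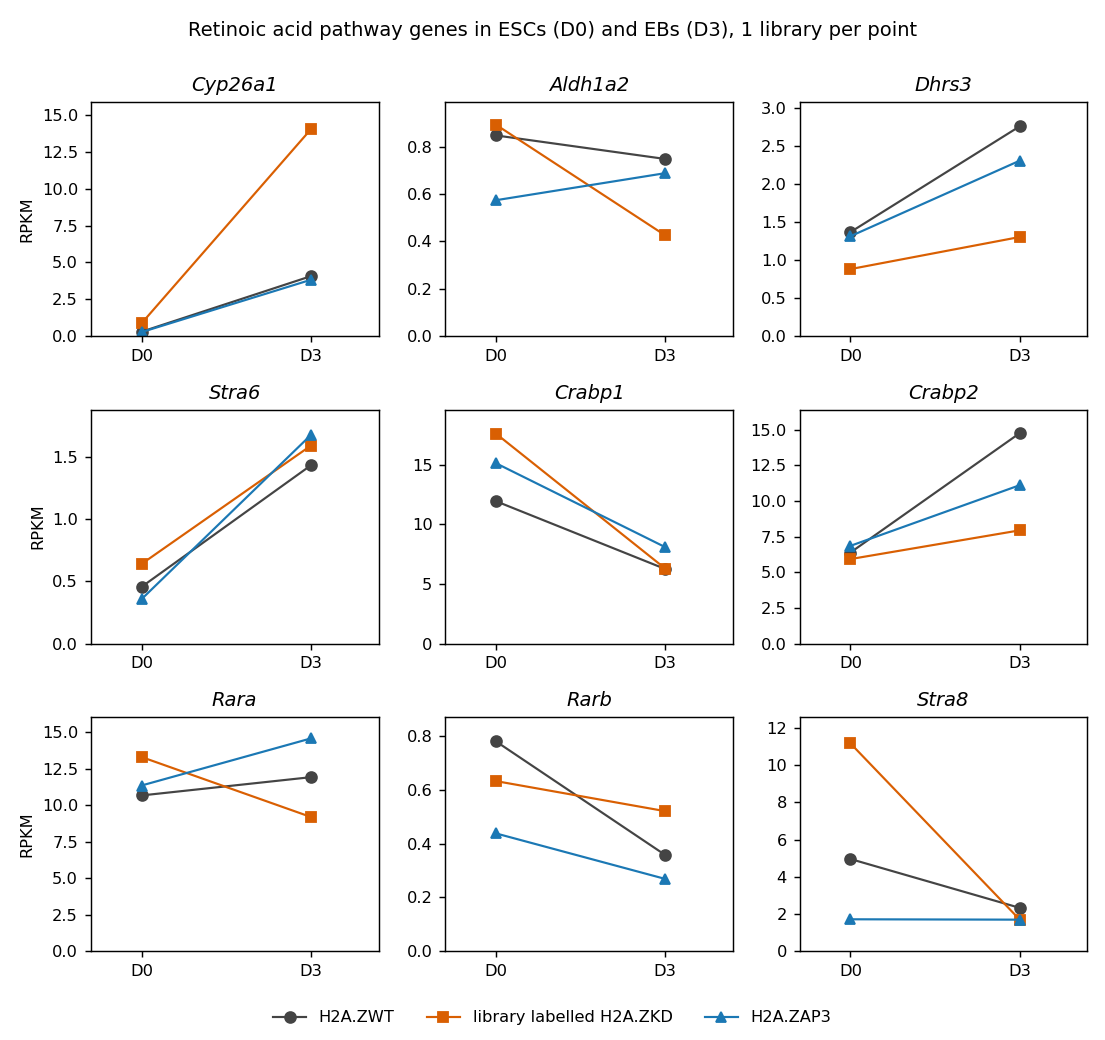
RPKM of the 9 retinoic acid pathway genes in ESCs (D0) and EBs (D3) on linear axes that start at 0, with 1 library per point and lines joining the libraries of 1 cell line. *Cyp26a1* reached 14.0 RPKM in the library labelled H2A.ZKD at D3 against 4.06 in H2A.ZWT, whereas *Stra8* was highest in the library labelled H2A.ZKD at D0, at 11.2 RPKM.

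Between H2A.ZWT ESCs and EBs, 7 of the 9 genes passed 1.5-fold, beside 30.7% of all gene entries in this comparison. *Cyp26a1*, *Stra6*, *Crabp2* and *Dhrs3* rose and *Crabp1*, *Rarb* and *Stra8* fell, so the genes of the carriers CRABP1 and CRABP2 moved in opposite directions. In the library labelled H2A.ZKD 5 of 9 genes passed the fold from D0 to D3 (all entries, 30.2%), and in H2A.ZAP3 6 of 9 did (31.0%). The median log2 change of the 9 genes was 0.16 in H2A.ZWT, −0.28 in the library labelled H2A.ZKD and 0.36 in H2A.ZAP3, beside 0.00, 0.01 and 0.03 for all entries above 0. Over the 7 genes with at least 1 RPKM on either day these medians were 1.01, 0.42 and 0.70, so the sign turned in the library labelled H2A.ZKD, and the median is not read as a direction of the set. Genes that rose in all 3 lines were *Cyp26a1* and *Stra6*, and *Crabp1* fell in all 3.

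Among the genes of retinoic acid breakdown and synthesis, *Cyp26a1* (chromosome 19 of mm9, 37772298 to 37776026, + strand, 7 exons) made the largest change of the set. It encodes the cytochrome P450 that clears retinoic acid. Its level in ESCs was 0.287 RPKM in H2A.ZWT, 0.857 in the library labelled H2A.ZKD and 0.261 in H2A.ZAP3, and in EBs the level was 4.06, 14.0 and 3.82 RPKM. The library labelled H2A.ZKD was highest at both days, and H2A.ZWT and H2A.ZAP3 stood next to each other. From D0 to D3 the level rose 14.1-fold in H2A.ZWT, 16.4-fold in the library labelled H2A.ZKD and 14.6-fold in H2A.ZAP3. The corresponding log2 changes were 3.82 (interval 2.87 to 5.12), 4.03 (3.50 to 4.64) and 3.86 (3.10 to 4.80), and these intervals overlap one another.

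Against H2A.ZWT, *Cyp26a1* was 2.97-fold higher in the library labelled H2A.ZKD at D0 (log2 1.57, interval 0.46 to 2.98). About 28 reads stood against 8 in that comparison, and with a pseudocount of 1 the log2 change was 0.53, under the threshold. At D3, about 637 reads against 150 gave a 3.46-fold difference (log2 1.79, interval 1.53 to 2.05). The log2 difference between H2A.ZAP3 and H2A.ZWT was −0.14 at D0 (−1.45 to 1.36) and −0.09 at D3 (−0.44 to 0.25). At D3 the interval thus lies within 1.5-fold on either side, whereas at D0 about 14 and 8 reads cannot show a difference of that size. H2A.ZAP3 was below the library labelled H2A.ZKD at both days, by 3.27-fold at D0 and 3.68-fold at D3. The D0 difference rests on about 14 and 28 reads and was under the threshold with a pseudocount of 1 (log2 −0.56).

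Markers of visceral endoderm, the tissue that surrounds the early epiblast, moved with *Cyp26a1* at D3. The summed level of 10 such markers was 76.9 RPKM in H2A.ZWT EBs, 204 in the library labelled H2A.ZKD and 86.9 in H2A.ZAP3 EBs, and 9 of 10 were more than 1.5-fold higher in the library labelled H2A.ZKD than in H2A.ZWT, beside 9.41% of all entries. *Cubn*, a receptor of the endoderm surface, was at 26.2, 93.3 and 34.6 RPKM in the same order. At D0 the markers did not follow *Cyp26a1*: their sum was 11.8 RPKM in H2A.ZWT, 16.4 in the library labelled H2A.ZKD and 42.4 in H2A.ZAP3, where *Cyp26a1* was lowest. *Afp* was at 0 in H2A.ZWT and H2A.ZAP3 ESCs and at 0.0245 RPKM in the library labelled H2A.ZKD, and *Ttr* was at 0, 0.0430 and 0 RPKM in H2A.ZWT, the library labelled H2A.ZKD and H2A.ZAP3. The part of these cells in the level of *Cyp26a1* was not tested.

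*Aldh1a2* (chromosome 9, 71063596 to 71144050, + strand, 14 exons) encodes the main enzyme that makes retinoic acid in the embryo. It was at 0.849, 0.894 and 0.574 RPKM at D0 in H2A.ZWT, the library labelled H2A.ZKD and H2A.ZAP3, and at 0.749, 0.426 and 0.689 RPKM at D3. The line labelled H2A.ZKD held both the highest level, at D0, and the lowest, at D3. That line was the only one of the 3 in which *Aldh1a2* passed the fold from D0 to D3, by a log2 change of −1.07 (−1.82 to −0.26), and the difference between lines in this change was not tested. At D3 it was 1.76-fold lower in the library labelled H2A.ZKD than in H2A.ZWT (log2 −0.81), with a ratio between 0.333 and 0.998 by counting error, from about 25 and 35 reads. With a pseudocount of 1 neither of these changes passed 1.5-fold.

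*Dhrs3* (chromosome 4, 144482730 to 144517548, + strand, 7 exons) encodes the reductase that returns retinal to retinol. Its levels were 1.37, 0.880 and 1.31 RPKM at D0 and 2.76, 1.30 and 2.31 RPKM at D3 in the same order of lines. The library labelled H2A.ZKD was lowest at both days. *Dhrs3* rose 2.02-fold from D0 to D3 in H2A.ZWT (log2 1.01, interval 0.39 to 1.68) and 1.76-fold in H2A.ZAP3 (log2 0.81, but 0.52 and under the threshold with a pseudocount of 1), and its log2 change was 0.56 in the library labelled H2A.ZKD (−0.20 to 1.37). Against H2A.ZWT it was 2.12-fold lower in the library labelled H2A.ZKD at D3 (log2 −1.08, interval −1.64 to −0.53). At D0 the log2 difference of −0.63 passed the fold, but its interval of −1.49 to 0.22 included 0, and a pseudocount of 0.1 ended the call. At D3, then, *Cyp26a1* was higher in the library labelled H2A.ZKD while *Aldh1a2* and *Dhrs3* were lower.

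*Stra6* (chromosome 9, 57976895 to 58001803, + strand, 19 exons) encodes the membrane receptor for retinol bound to its plasma carrier RBP4. It was at 0.455, 0.639 and 0.356 RPKM in ESCs and at 1.43, 1.59 and 1.67 RPKM at D3. The level in every EB library was above that in every ESC library. It rose 3.14-fold in H2A.ZWT (log2 1.65, interval 0.95 to 2.46), 2.48-fold in the library labelled H2A.ZKD (log2 1.31, interval 0.75 to 1.94) and 4.68-fold in H2A.ZAP3 (log2 2.23, interval 1.62 to 2.87). Between the lines at D3 the 3 levels lay within 1.5-fold of each other, whereas at D0 the level in H2A.ZAP3 was 1.79-fold lower than in the library labelled H2A.ZKD (log2 −0.84, interval −1.59 to −0.06). That call rests on about 30 and 32 reads and was lost with a pseudocount of 1 (log2 −0.27) and at 2-fold.

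The cellular carriers and *Rara* had the highest mean RPKM over the 6 libraries, although *Cyp26a1* exceeded all 3 in the library labelled H2A.ZKD at D3, and *Stra8* exceeded *Crabp2* in that line at D0. *Crabp1* (chromosome 9, 54612615 to 54620916, + strand, 4 exons) was at 11.9, 17.6 and 15.1 RPKM in ESCs and at 6.25, 6.29 and 8.08 RPKM at D3. All 3 ESC levels were above all 3 EB levels. The fall was 1.91-fold in H2A.ZWT (log2 −0.93, interval −1.31 to −0.57), 2.80-fold in the library labelled H2A.ZKD (log2 −1.48, interval −1.80 to −1.17) and 1.87-fold in H2A.ZAP3 (log2 −0.90, interval −1.20 to −0.62). Against H2A.ZWT at D0 its log2 difference was 0.56 in the library labelled H2A.ZKD (0.27 to 0.85) and 0.34 in H2A.ZAP3 (0.07 to 0.62), which is beyond counting error but under 1.5-fold.

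*Crabp2* (chromosome 3, 87752615 to 87757294, + strand, 4 exons) was at 6.39, 5.93 and 6.86 RPKM in ESCs, and at 14.8, 7.95 and 11.1 RPKM in EBs. The 3 ESC libraries lay within 1.5-fold of each other, and the EB libraries spread out further, with H2A.ZWT highest and the library labelled H2A.ZKD lowest. *Crabp2* rose 2.31-fold in H2A.ZWT (log2 1.21, interval 0.88 to 1.56) and 1.62-fold in H2A.ZAP3 (log2 0.70, interval 0.41 to 0.98), whereas its log2 change in the library labelled H2A.ZKD was 0.42 (0.07 to 0.79). At D3 it was 1.86-fold lower in the library labelled H2A.ZKD than in H2A.ZWT (log2 −0.89, interval −1.17 to −0.63), and in H2A.ZAP3 the log2 difference was −0.41 (−0.68 to −0.15), under 1.5-fold. In H2A.ZWT, *Crabp1* was thus the higher carrier in ESCs and *Crabp2* in EBs, on the RPKM scale.

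*Rara* (chromosome 11, 98799010 to 98836256, + strand, 10 exons) encodes the receptor with the steadiest level of the set. It was at 10.7, 13.3 and 11.3 RPKM in ESCs and at 11.9, 9.19 and 14.6 RPKM at D3. Its log2 change from D0 to D3 was 0.16 in H2A.ZWT, 0.36 in H2A.ZAP3 and −0.53 in the library labelled H2A.ZKD (−0.68 to −0.39). The only comparison in which it passed 1.5-fold was H2A.ZAP3 against the library labelled H2A.ZKD at D3, with a log2 difference of 0.66 (0.53 to 0.80). Of 5 reference genes measured for scale, 1 was also higher in that comparison and 0 lower (all entries, 11.6% and 11.1%). It was *Gapdh*, at 1859 against 1221 RPKM (log2 0.61).

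*Rarb* (chromosome 14, 17263354 to 17407724, − strand, 8 exons), a receptor gene that is also a classical target of retinoic acid, was at 0.780, 0.632 and 0.438 RPKM in ESCs and at 0.358, 0.521 and 0.269 RPKM at D3. The H2A.ZAP3 library was lowest at each day. It fell 2.18-fold in H2A.ZWT (log2 −1.12, interval −1.92 to −0.33) and 1.63-fold in H2A.ZAP3 (log2 −0.70, interval −1.60 to 0.16), and was 1.78-fold lower in H2A.ZAP3 than in H2A.ZWT at D0 (log2 −0.83, interval −1.50 to −0.16). These values rest on about 17 to 41 reads, and none of them passed the fold with a pseudocount of 1. *Rarb* and *Cyp26a1*, which both hold a DR5 match in the shorter window, moved in opposite directions from D0 to D3 in H2A.ZWT.

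*Stra8* (chromosome 6, 34870960 to 34889342, + strand, 9 exons) differed most between the ESC lines. It was at 4.96 RPKM in H2A.ZWT ESCs, 11.2 in the library labelled H2A.ZKD and 1.72 in H2A.ZAP3, and at 2.33, 1.70 and 1.70 RPKM at D3. The ESC libraries spread out and the EB libraries lay close together. At D0 it was 2.25-fold higher in the library labelled H2A.ZKD (log2 1.17, interval 0.86 to 1.49) and 2.88-fold lower in H2A.ZAP3 (log2 −1.53, interval −1.95 to −1.09) than in H2A.ZWT. It fell 6.56-fold from D0 to D3 in the library labelled H2A.ZKD and 2.13-fold in H2A.ZWT, and in H2A.ZAP3 its log2 change was −0.02 (−0.56 to 0.51). Of 6 meiotic and germ cell genes, 0 passed 1.5-fold at D0 in either line against H2A.ZWT, beside 25.0% of all entries in H2A.ZAP3 and 19.7% in the library labelled H2A.ZKD. Among entries with at least 1 RPKM in either library these shares were 13.9% and 8.02%, and 5 and 6 of the 6 genes met that minimum. *Ddx4* was at 12.5, 11.7 and 12.2 RPKM. *Dazl* had the order of *Stra8* at D0, with 2.46, 2.59 and 1.74 RPKM, and was at 1.53, 1.26 and 0.806 RPKM in the EBs, whereas *Sycp3* was at 14.4, 18.0 and 16.9 RPKM in ESCs and at 46.0, 34.3 and 19.1 RPKM in the EBs. From D0 to D3 in H2A.ZWT 2 of the 6 rose and 2 fell (all entries, 30.7% in either direction), and at D3 2 were lower and 0 higher in H2A.ZAP3 than in H2A.ZWT (22.1%).

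Read by line, H2A.ZAP3 differed from H2A.ZWT in 2 of 9 genes at D0, *Rarb* and *Stra8*, which were both lower, beside 25.0% of all entries past the fold and 13.9% lower by it. At D3 it differed in 0 of 9 (all entries, 22.1%). The library labelled H2A.ZKD differed from H2A.ZWT in 3 of 9 genes at D0 (all entries, 19.7%) and in 4 of 9 at D3 (20.7%), with *Cyp26a1* higher and *Aldh1a2*, *Dhrs3* and *Crabp2* lower at D3. Both comparisons of a day share the H2A.ZWT library. The median log2 change of the 9 genes in H2A.ZAP3 was −0.14 at D0 and −0.12 at D3, and in the library labelled H2A.ZKD it was 0.32 and −0.37, beside −0.02, −0.01, −0.04 and −0.04 for all entries above 0. With the 1 RPKM filter described next, the median in H2A.ZAP3 at D0 was 0.09, so its sign turned too. Between H2A.ZAP3 and the library labelled H2A.ZKD, 4 of 9 genes differed at D0 (27.0% of all entries) and 5 of 9 at D3 (22.7%). Over the 9 comparisons 36 of 81 values passed the fold, and the counting interval excluded 0 in 32 of these.

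The count of genes past a fold depends on how low levels are handled, so it was also read with entries left out when under 1 RPKM in both libraries. Under that filter 1 of 5 genes differed in H2A.ZAP3 against H2A.ZWT at D0 (all such entries, 13.9%) and 0 of 7 at D3 (10.2%). In the library labelled H2A.ZKD against H2A.ZWT, 2 of 5 differed at D0 (8.02%) and 3 of 7 at D3 (8.59%), and between H2A.ZAP3 and that library 1 of 5 (18.4%) and 3 of 7 (11.3%). From D0 to D3 it was 6 of 7 in H2A.ZWT (23.0%), 4 of 7 in the library labelled H2A.ZKD (22.3%) and 5 of 7 in H2A.ZAP3 (24.3%). *Cyp26a1* and *Stra6* passed the filter between the days only through the EB libraries, where they are high, and *Dhrs3* passed it at D0 against the library labelled H2A.ZKD only through H2A.ZWT, where it is high, so these counts are a description. With a pseudocount of 1, which shrinks low levels, *Stra8* alone differed at D0 in each of the 3 comparisons between lines, beside 4.78% of entries for H2A.ZAP3 and 2.16% for the library labelled H2A.ZKD against H2A.ZWT, and 6.92% between these. At D3 the counts were 0 (3.11%), 3 (2.38%) and 2 (3.74%) in the same order, and from D0 to D3 they were 6 in H2A.ZWT (9.72%), 4 in the library labelled H2A.ZKD (9.19%) and 4 in H2A.ZAP3 (10.3%). At a 2-fold threshold 1 gene differed in H2A.ZAP3 against H2A.ZWT at D0 (15.2%) and 0 at D3 (13.9%). For the library labelled H2A.ZKD it was 2 at D0 (12.5%), *Cyp26a1* and *Stra8*, and 2 at D3 (13.1%), *Cyp26a1* and *Dhrs3*. Between H2A.ZAP3 and that library it was 2 (15.9%) and 1 (14.3%), and from D0 to D3 it was 6 in H2A.ZWT (19.8%), 5 in the library labelled H2A.ZKD (19.4%) and 2 in H2A.ZAP3 (19.7%), *Cyp26a1* and *Stra6*.

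**Figure D2:**
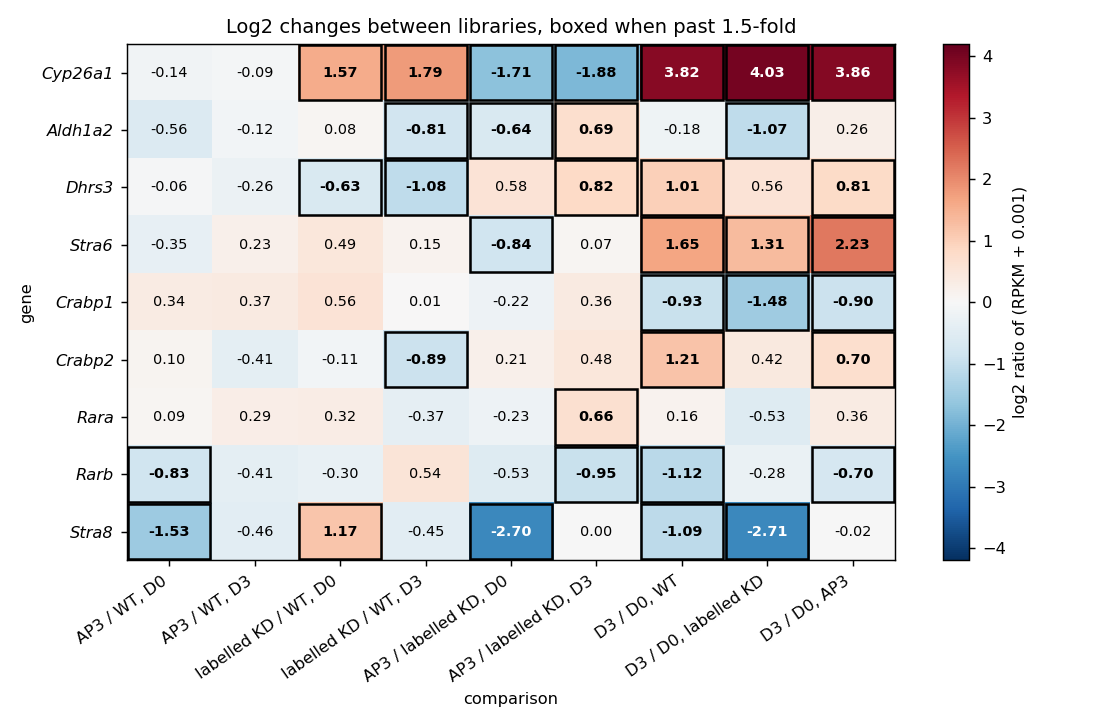
Log2 ratio of (RPKM + 0.001) of each gene (rows) in the 9 comparisons between libraries (columns), in color and in print, with a box where the ratio passed 1.5-fold. The 3 columns on the right, D3 against D0, hold the largest increases, up to 4.03 for *Cyp26a1*, and the column of H2A.ZAP3 against H2A.ZWT at D3 holds no box.

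**Figure D3:**
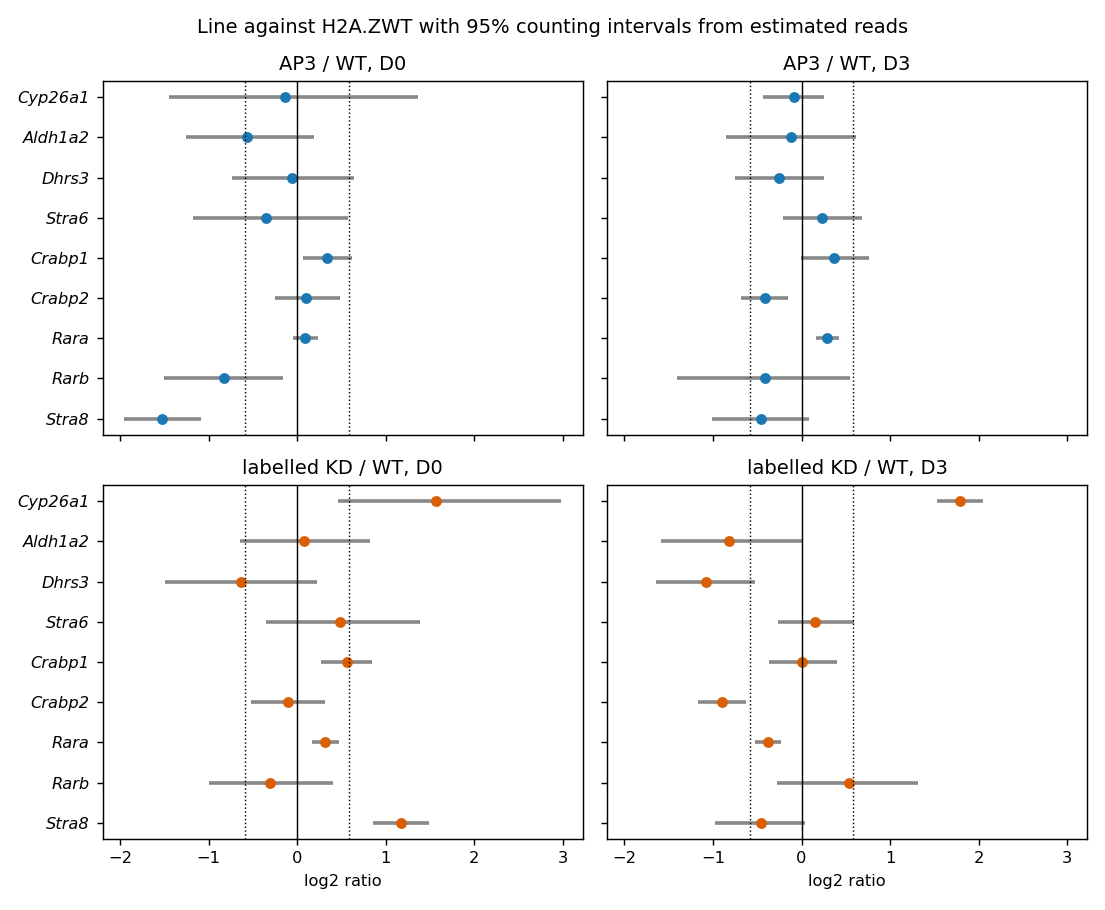
Log2 ratio of H2A.ZAP3 (top) and of the library labelled H2A.ZKD (bottom) to H2A.ZWT at D0 (left) and D3 (right), with points for the ratio of (RPKM + 0.001), bars for the 95% counting interval from estimated reads, and dotted lines at 1.5-fold. The bars of *Cyp26a1* at D0 are the widest, since 8 to 28 reads stand behind them, while at D3 the bar in the library labelled H2A.ZKD runs from 1.53 to 2.05.

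Fibroblast markers were measured because feeder cells had been used before the final passage. Their summed level over 8 genes was 27.9 RPKM in H2A.ZWT, 24.2 in the library labelled H2A.ZKD and 47.3 in H2A.ZAP3 at D0, and 13.0, 7.47 and 9.92 RPKM at D3, with *Thy1* at 9.19 RPKM making up most of the sum in H2A.ZWT EBs. At D0, 5 of 8 were higher and 1 lower in H2A.ZAP3 than in H2A.ZWT (all entries, 11.1% and 13.9%). *Col1a1*, the main collagen gene of fibroblasts, was at 9.76, 7.42 and 15.5 RPKM at D0. From D0 to D3 in H2A.ZWT, where *Crabp1*, *Rarb* and *Stra8* fell, 5 of 8 fell (all entries, 16.5%) and 1 rose (14.1%). The gene that rose was *Thy1*, from 1.74 to 9.19 RPKM, while *Dcn* was at 0.321 and 0.381 RPKM. *Lum* was at 0 in H2A.ZWT at both days and in the library labelled H2A.ZKD at D3, and *Postn* was at 0 in all 3 EB libraries and in H2A.ZAP3 ESCs. In the library labelled H2A.ZKD at D3, 5 of the 8 were lower than in H2A.ZWT and 0 higher (all entries, 11.3% and 9.41%). Of 6 neural markers 3 were lower there and 1 higher, beside the same shares. Of the 3 with at least 1 RPKM in either library, 1 was lower (4.88%), *Pax6*, at 3.19 against 6.05 RPKM. From D0 to D3 in H2A.ZWT, 4 of 4 epiblast markers rose. Of 7 primitive streak markers 3 rose and 0 fell (all entries, 14.1% and 16.5%). The part of these cell types in the levels of the 9 genes was not tested.

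The remaining receptor genes put *Rara* and *Rarb* in place. *Rarg*, which encodes the third retinoic acid receptor, was higher than both, from 21.8 to 34.2 RPKM over the 6 libraries, and among the RXR partners *Rxrb* (19.1 to 25.9 RPKM) was higher than *Rxra* (4.54 to 5.11) and *Rxrg* (0.180 to 0.615). Of the 11 receptors and cofactors beyond the 9 genes, 10 had at least 1 RPKM, and 0 of these passed 1.5-fold in a comparison between lines, beside 8.02% to 18.4% of such entries. From D0 to D3 the cofactor genes *Ncoa3* and *Nrip1* fell in H2A.ZWT, *Ncoa3* from 38.9 to 22.6 RPKM.

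Among 8 other genes of retinoid transport and binding found in the table, 2 were higher in the library labelled H2A.ZKD than in H2A.ZWT at D3 and 1 was lower (all entries, 20.7%), and these counts were the same among the 5 that passed the 1 RPKM filter (8.59%). *Rbp4*, the plasma carrier of retinol, was at 3.16 RPKM in H2A.ZWT EBs, 14.7 in the library labelled H2A.ZKD and 1.57 in H2A.ZAP3. *Ttr*, which encodes the partner of RBP4 in plasma and is also on the visceral endoderm list, was at 1.81, 8.57 and 1.11 RPKM. In H2A.ZAP3 EBs 5 of the 8 were lower than in H2A.ZWT and 1 higher (all entries, 22.1%), and of the 5 that passed the filter 4 were lower and 0 higher (10.2%).

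Of 21 other genes of retinoid metabolism in the table, 8 reached 1 RPKM in at least 1 library. In the library labelled H2A.ZKD against H2A.ZWT 1 of the 21 was higher and 6 lower at D0 (all entries, 19.7% in either direction), and 6 were higher and 4 lower at D3 (20.7%). In H2A.ZAP3 3 were higher and 4 lower at D0 (25.0%), and 3 higher and 3 lower at D3 (22.1%). Most of these calls were on genes under 1 RPKM in both libraries. Of the 7 with at least 1 RPKM in either, 0 passed the fold at D0 in the library labelled H2A.ZKD (such entries, 8.02%). At D3 2 of 7 were higher there and 0 lower (8.59%). In H2A.ZAP3 1 of 8 was higher and 0 lower at D0 (13.9%), and 0 of 7 passed at D3 (10.2%). *Cyp26b1*, a paralog of *Cyp26a1*, showed another pattern, at 0.318, 0.372 and 1.46 RPKM in ESCs and at 0.325, 0.151 and 0.198 RPKM at D3. It was 4.58-fold higher in H2A.ZAP3 than in H2A.ZWT ESCs, but it met the 1 RPKM minimum there only through the H2A.ZAP3 library. *Cyp26c1*, another gene of the family, was low throughout, at 0.0324, 0.0925 and 0.0905 RPKM in ESCs and 0.266, 0.103 and 0.111 RPKM in EBs. The retinol dehydrogenase genes *Rdh10* and *Rdh11* were higher in the library labelled H2A.ZKD than in H2A.ZWT at D3, at 5.30 against 2.71 RPKM and at 18.7 against 11.8 RPKM. The aldehyde dehydrogenases *Aldh1a1* and *Aldh1a3*, which can also make retinoic acid, were at most at 0.426 and 0.581 RPKM.

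The markers of other cell types already described also moved in H2A.ZAP3 ESCs. Against H2A.ZWT, 6 of 10 visceral endoderm markers were higher and 1 lower (all entries, 11.1% and 13.9%). Of 8 fibroblast markers 5 were higher and 1 lower, beside the same shares. The part of these cell types in the next list was not tested. A list of 18 genes known as retinoic acid targets, 3 of them also on the receptor or transport list, was measured in the same way. In H2A.ZAP3 against H2A.ZWT, 6 of the 18 were higher and 0 lower at D0 (all entries, 11.1% and 13.9%), and 6 were higher and 3 lower at D3 (22.1% in either direction). In the library labelled H2A.ZKD against H2A.ZWT, 3 were higher and 3 lower at D0 (19.7% in either direction), and 4 were higher and 6 lower at D3 (20.7%). Among those with at least 1 RPKM in either library, 1 of 11 was higher and 2 lower in H2A.ZAP3 at D3 (such entries, 10.2%). In the library labelled H2A.ZKD it was 1 higher and 2 lower of 12 at D0 (8.02%). At D3 it was 2 higher and 4 lower of 9 (8.59%). Some met this minimum in 1 library only, so these counts are a description. With at least 1 RPKM in either library, *Gata4*, which is also a visceral endoderm marker, *Tgm2*, *Hoxb4* and *Hoxa3* were higher in H2A.ZAP3 at D0, where 7.79% of such entries were higher and 6.07% lower. *Hoxb4* (1.353 against 0.595 RPKM) and *Hoxa3* (1.01 against 0.386 RPKM) met this minimum only through the H2A.ZAP3 library, so no share is read from them. *Gata4* was at 12.0 RPKM against 3.24, and *Tgm2*, a transglutaminase gene, at 20.6 RPKM against 9.60. In the library labelled H2A.ZKD at D3, *Gata4* was at 23.2 RPKM against 13.7 in H2A.ZWT, and *Tgm2* was lower, at 3.58 against 5.603. From D0 to D3 *Cdx1*, a homeobox gene of the posterior axis, fell from 2.79 to 0.540 RPKM in H2A.ZWT, from 2.02 to 0.225 in the library labelled H2A.ZKD and from 3.25 to 0.249 in H2A.ZAP3, so that this target fell while *Cyp26a1* rose in the same libraries.

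The genes most like *Cyp26a1*, *Stra8* and *Crabp1*, the 3 members with the widest range of log2(RPKM + 1), a scale on which the low genes *Stra6*, *Dhrs3* and *Rarb* range less than *Crabp1* although their fold spans are wider, were taken as the 5 with the highest Pearson's r of log2(RPKM + 1) over the 6 libraries among 1813 genes with a range of at least 1. These values describe 6 points that share libraries and depth, and they carry no test. The genes were picked by this likeness, so a peak shared with the member follows largely from the choice. For *Cyp26a1* they were *Cited1* (r = 0.996), *Mttp* (0.995), *Loxl2* (0.991), *Slc7a9* (0.990) and *Soat2* (0.990). *Mttp*, a lipid transfer protein gene needed to make lipoproteins, was at 6.52, 15.6 and 5.94 RPKM at D3, highest in the library labelled H2A.ZKD as *Cyp26a1* was. For *Stra8* they were *Hist2h4* (0.990), *Hist1h2bf* (0.978), *Hist1h2bn* (0.971), *Hist1h2bl* (0.964) and *Tmem92-ps* (0.963). The first 4 are histone genes of the replication-dependent clusters, most of whose transcripts lack a poly(A) tail, and *Hist2h4* was at 1.13, 2.75 and 0.177 RPKM at D0. For *Crabp1* they were *Mtrnr2l* (0.988), *En2* (0.987), *Apol8* (0.986), *Hal* (0.986) and *Hist1h1c* (0.985).

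**Figure D4:**
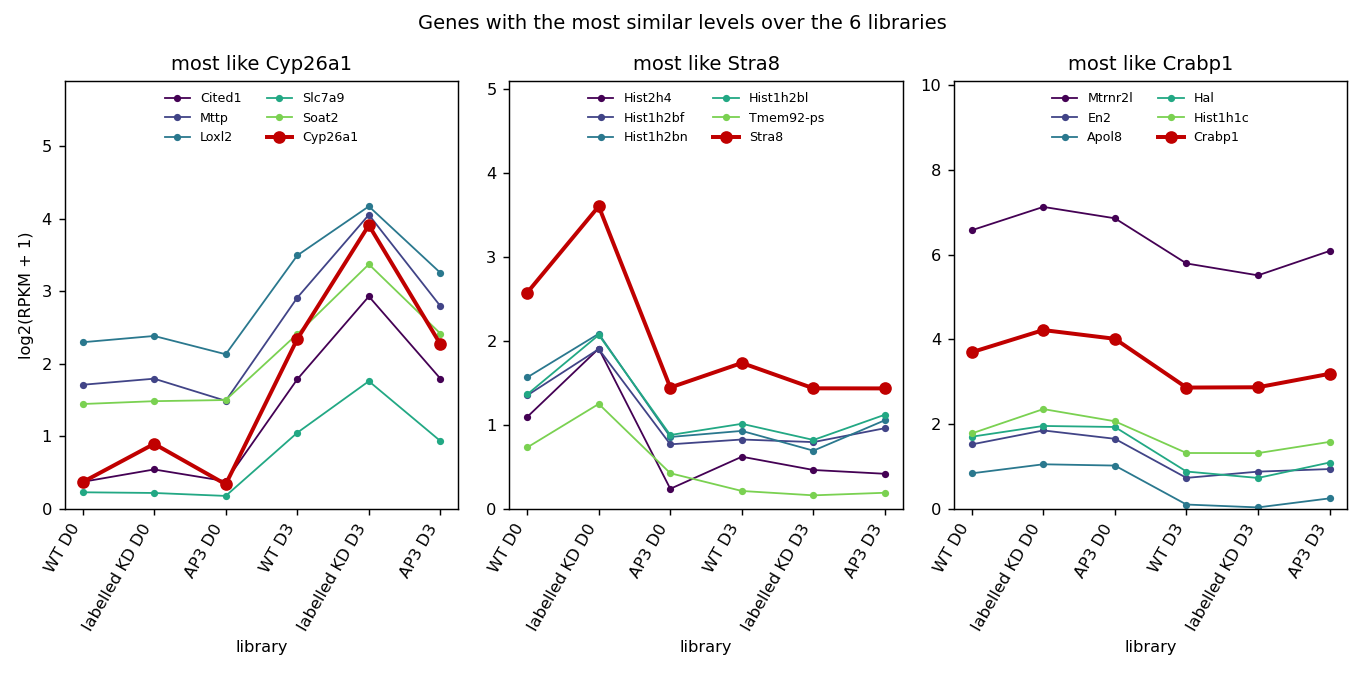
Log2(RPKM + 1) over the 6 libraries of *Cyp26a1*, *Stra8* and *Crabp1* (thick lines) and of the 5 genes most like each (thin lines), with 1 library per point. All 6 lines of the left panel peak in the library labelled H2A.ZKD at D3, all 6 of the middle panel in the library labelled H2A.ZKD at D0, and all 6 of the right panel are higher at D0 than at D3. The thin lines were picked for likeness over these same libraries, so the shared shapes follow largely from the choice.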

How the data were processed

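RNA was oligo(dT)-selected and prepared with an Illumina kit. The authors aligned single-end reads to mm9 and deposited RPKM per gene from Cufflinks 1.3.0, with Bowtie 0.12.7 and TopHat (version 1.14 in the submitters' processing notes). The deposited table also holds the authors' log2 ratios between lines, which were not used. Changes were computed here as log2((RPKM + 0.001)/(RPKM + 0.001)) and called past 1.5-fold over all 21639 entries, without any p-value. A call on a gene under 1 RPKM can rest on few reads. Reads per gene were estimated as RPKM × transcript length × depth. Depth came from the most frequent low value among 3696 genes with a single GENCODE transcript over 1.5 kb, and for members the length was that of the coding transcript with the nearest ends. Gene starts were raised by 1 from the deposited loci. Multi-mapped reads and isoform weights make these reads approximate.

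The members, lists and tests were chosen with earlier results of these data known. Named are the 9 members, *H2afz*, marker genes, the genes of each list past the fold with at least 1 RPKM (up to 4 per list and comparison), and the 5 genes most like the 3 members of widest range. The values of 3 list genes are not reported here, though list counts include them. A gene named outside this rule, such as *Rarg*, was chosen after its values were seen. Also tried were a pseudocount of 0.1 or 1, leaving out entries under 1 RPKM in both libraries, centring on the median ratio, summing entries per symbol and a 2-fold threshold. The scripts were tested on simulated data. Python 3.11.15, numpy 2.4.6, pandas 2.3.3, scipy 1.17.1, pysam 0.24.0 and matplotlib 3.10.9 were used.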

Additional observations from a re-analysis of the deposited data

Results flagged for a closer look

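*Aldh1a2* differed past 1.5-fold between H2A.ZAP3 and the library labelled H2A.ZKD in opposite directions at the 2 days, with a log2 difference of −0.64 at D0 and 0.69 at D3, a shift of 1.33. The shift between the days was not tested, and the counting interval included 0 at D0 (−1.30 to 0.07) and at D3 (−0.13 to 1.49).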

How the results depend on the processing

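Of the 36 calls, 17 kept their direction and their side of the threshold under every alternative that could change them, among them *Cyp26a1* from D0 to D3 in all 3 lines and at D3 in the library labelled H2A.ZKD against H2A.ZWT, and *Stra8* in all 3 comparisons at D0. The other 19 were lost under at least 1 alternative, and no single gene's log2 change reversed. A pseudocount of 0.1 ended 3 calls, a pseudocount of 1 ended 14 and the 2-fold threshold 15. Summing entries could not change a member, since each has 1 entry, and the filter of 1 RPKM leaves a kept ratio as it is, so it bears only on which genes are counted (25 of the 36 calls) and on medians. With the filter the members' median log2 change turned from −0.28 to 0.42 in the library labelled H2A.ZKD from D0 to D3 and from −0.14 to 0.09 in H2A.ZAP3 against H2A.ZWT at D0, and went from 0.16 to 1.01 in H2A.ZWT from D0 to D3. Centring added 1, *Crabp1* in the library labelled H2A.ZKD against H2A.ZWT at D0 (log2 0.59). For H2A.ZAP3 against H2A.ZWT at D0 the count of 2 genes fell to 1 with a pseudocount of 1, with the filter and with the 2-fold threshold. For the library labelled H2A.ZKD against H2A.ZWT it fell from 3 to 1 at D0 with a pseudocount of 1 and from 4 to 2 at D3 with the 2-fold threshold. For H2A.ZAP3 against the library labelled H2A.ZKD the 4 genes at D0 fell to 1 with a pseudocount of 1, 1 with the filter and 2 with the 2-fold threshold, and the 5 at D3 fell to 2, 3 and 1. In H2A.ZAP3 from D0 to D3 the count fell from 6 to 2 with the 2-fold threshold. A larger pseudocount shrinks the ratios of low genes and a higher threshold leaves fewer calls by construction. No paired analysis of replicates was possible because each condition has 1 library. A fit of the day with the 3 lines as blocks, which would take lines of different genotype as replicates, was not run.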
